A study of Mus musculus with 5 samples.

Results

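The transcripts described here are those of the cytosolic ribosomal proteins, measured in cells sorted from mouse bone marrow. They were chosen by gene symbol alone: Rpl or Rps and a digit, Rplp and a digit, or Rpsa, without S6 kinases, pseudogene symbols and Rik clones. This gave 86 of the 22098 symbols in the table, with 43 large subunit proteins, 31 small subunit proteins, the 3 stalk proteins Rplp0, Rplp1 and Rplp2, and 9 paralogs or related genes. The first 3 classes hold 77 genes and are called core members below. Where a symbol had several RefSeq transcripts, the one with the highest mean was used. The unit is RPKM, reads counted per kilobase of transcript and scaled to the size of each library, so levels of different genes are compared per length. The ribosomal proteins Fau and Gnb2l1 (the small subunit scaffold Rack1) fall outside the symbol rule and are given with the pathway lists.

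All libraries came from C57BL/6 mice aged 6 to 7 weeks, from fraction A of the Hardy scheme, its earliest B lineage stage, which the labels call proB cells and which was not depleted of other lineages. The 2 wt libraries were compared with 2 libraries of the genotype Ikaros_ZnF1-/- (dF1) and 1 of Ikaros_ZnF4-/- (dF4). Ikaros, encoded by Ikzf1, is a transcription factor of lymphoid development with several zinc fingers, and the mutants lack one finger each. Both dF1 libraries are biological replicates per the design text, which also gives low coverage for dF4. For wt the labels give only replicate numbers, so p-values measure the spread between these libraries, which may be technical.

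A ribosome carries one copy of most ribosomal proteins, bound to ribosomal RNA in a large and a small subunit. Cells therefore need the core proteins in similar amounts, and their mRNAs are among the most abundant in dividing blood precursors. Many of these mRNAs begin with a pyrimidine tract (the 5′ TOP) through which mTOR signalling sets their translation. Mammalian genomes also hold many processed pseudogenes, copies of these mRNAs pasted back into the genome, and a short read from such an mRNA can match several places. No source used here says how reads with several matches were handled.

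The libraries differed in more than genotype. Pro-B marker sums (11 genes, none at 0) were 674.1 and 459.2 RPKM in wild type, 559.9 and 534.3 in dF1 and 1175 in dF4. Plasmacytoid dendritic cell markers (13 genes) were higher, with sums between 4696.7 and 6385 in the wt and dF1 libraries, and 897.9 in dF4, where 2 were at 0. Neutrophil markers (12 genes, none at 0) summed to 408 and 1089.7 RPKM in wild type, 220.9 and 863 in dF1 and 33825.4 in dF4. Erythroid markers (11 genes) summed to between 148.7 and 252.2 in wt and dF1, with 1 of them at 0 in dF1 replicate 1, and to 1610.3 in dF4. In bulk RNA, a change in the number of cells of a type and a change in RNA per cell cannot be told apart. Depth could be estimated only for dF4, at about 597000 reads, from steps in its low values. Ikzf1 lay between 141.1 and 237.7 RPKM, a value over the whole transcript that checks no finger deletion.

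Levels differed widely among the 86 members. Only 8 averaged 100 RPKM or more over the 5 libraries, 36 lay between 5 and 100, and 26 were below 5 RPKM in every library. Rpl8, which lies by the peptidyl transferase centre, was among the highest, at 823.4 and 747.4 RPKM in wild type, 795 and 790.6 in dF1 and 1102 in dF4. The dF4 library was the highest of the 5, and the wt and dF1 values overlapped.

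Rps3, at the mRNA entry channel, was at 422.1 and 311.5 RPKM in wild type, 419.9 and 539.6 in dF1 and 520.4 in dF4. Rps9, a small subunit protein that affects decoding accuracy, was at 418.8 and 395.1 RPKM in wild type, 401.9 and 351.1 in dF1 and 401.7 in dF4. Rpl4, which lines the peptide exit tunnel, was at 340.7 and 224.2 RPKM in wild type, 349.6 and 355.8 in dF1 and 290.5 in dF4. The order of these genes was not fixed, since Rps3 and Rps9 changed places between libraries. Rps15 and Rpl13a were lower, with means of 179.9 and 105.6 RPKM.

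**Figure D1:**
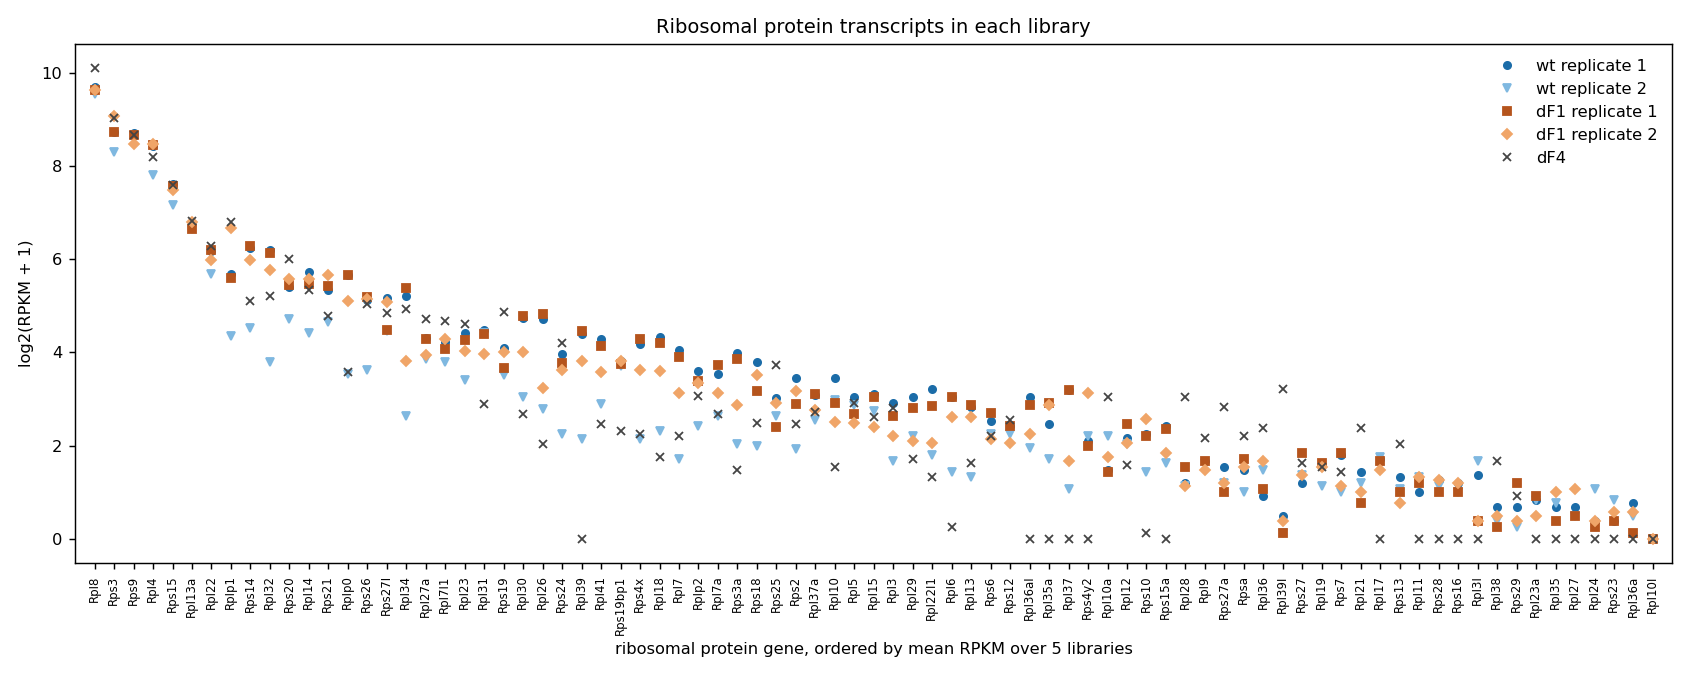
Level of 81 of the 86 members in each of the 5 libraries, on log2(RPKM + 1), with genes ordered by their mean. Rpl8 leads those drawn, wt replicate 2 (light blue triangles) lies below wt replicate 1 in most of the upper and middle part of the order, and 18 of the members drawn are at 0 in dF4 (crosses).

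The 26 members near 0 were 14 large and 10 small subunit proteins of the core and the paralogs Rpl3l and Rpl10l. They include proteins that every ribosome carries. Rpl11, which joins 5S RNA and can bind Mdm2, was at 1.0 and 1.5 RPKM in wild type, 1.3 and 1.5 in dF1 and 0 in dF4. Rps23, at the decoding centre, was at 0.3 and 0.8 RPKM in wild type, 0.3 and 0.5 in dF1 and 0 in dF4. Rpl27 was at 0.6 and 0.4 RPKM in wild type, 0.4 and 1.1 in dF1 and 0 in dF4. These proteins were thus listed far under Rpl8, their partner in the same particle, in all genotypes.

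Rps13, Rps16, Rps28, Rps29, Rpl23a, Rpl24, Rpl35, Rpl36a and Rpl38 were as low, with means between 0.34 and 1.48 RPKM. Just inside the limit of 5 RPKM the highest mean was that of Rps12, at 4.4 and 3.8 RPKM in wild type, 4.4 and 3.2 in dF1 and 4.9 in dF4. The members with low means outside it included Rpl39l, Rps27a, Rpl28 and Rps10, each of which reached 5 RPKM in a single library. Rps27a, made as a fusion with ubiquitin, was at 1.9 and 1.3 RPKM in wild type, 1.0 and 1.3 in dF1 and 6.1 in dF4. Rpl28 showed 1.3 and 1.2 RPKM in wild type, 1.9 and 1.2 in dF1 and 7.2 in dF4. The dF4 library thus put Rps27a and Rpl28 outside the near-0 set, and these values rest on about 2 to 3 reads. Rps10 reached 5.0 RPKM in dF1 replicate 2 and was at 3.8 and 1.7 in wt, 3.6 in dF1 replicate 1 and 0.1 in dF4.

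To describe how the members differ in sequence, a matched GENCODE M21 transcript of each was compared with all other annotated mouse transcripts. The build was GRCm38, not the mm9 used for the files. Windows were taken over the whole transcript, untranslated parts included, and full-length copies over the coding sequence only. The matched transcript could differ in length from the one measured, as in Rps20, with 3706 bases against 506. All 77 core members shared at least one 50-base window, with at most 2 mismatches, with an annotated pseudogene. The median number of such pseudogenes was 15 per gene and the highest was 161, for Rpl7a. A full-length copy of the coding sequence, without gaps and at least 80% identical, existed for 71 of the 77. The stretches below show members at different distances from their copies, beginning with members near 0. Each is 90 coding bases of a member and of one copy, with the bases that differ in capitals.

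Rpl27: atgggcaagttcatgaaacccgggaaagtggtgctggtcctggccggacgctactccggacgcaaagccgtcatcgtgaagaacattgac
Gm11518: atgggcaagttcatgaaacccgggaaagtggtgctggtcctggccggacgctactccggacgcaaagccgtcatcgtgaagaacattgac
Rps23: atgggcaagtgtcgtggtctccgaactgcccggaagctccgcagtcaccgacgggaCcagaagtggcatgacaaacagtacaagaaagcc
Rps23-ps2: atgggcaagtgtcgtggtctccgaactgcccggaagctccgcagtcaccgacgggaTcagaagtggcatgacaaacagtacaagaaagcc
Rps15: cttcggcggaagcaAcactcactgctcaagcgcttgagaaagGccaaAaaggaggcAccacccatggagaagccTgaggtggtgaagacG
Rps15-ps2: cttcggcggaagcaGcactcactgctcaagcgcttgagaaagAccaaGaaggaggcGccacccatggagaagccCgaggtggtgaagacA

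Rpl27 (mean 0.50 RPKM) and its copy on chromosome 11 had 0 differences over all 408 coding bases, so no read from inside the coding sequence separates them. Rps23 (mean 0.38 RPKM) and its copy on chromosome 8 differed at 2 of 429 coding bases, 1 of them in the stretch shown. Rps15 (mean 179.9 RPKM) differed from the copy on chromosome 6 at 10 of 435 bases, 6 of them in the stretch.

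Across the core, class medians rose in the order of the distance to the closest copy, with overlap between neighbouring classes. The 20 members with an identical copy had means between 0.34 and 18.2 RPKM, with a median of 3.3, and 10 of them were near 0. The 41 with a copy within 2% of their coding bases had means up to 65.7 RPKM, with a median of 4.48, and 14 were near 0. The 10 whose closest copy was further away lay between 10.8 and 179.9 RPKM, with a median of 46.2, and 0 were near 0. Distance was counted without gaps, so an inserted or lost base in a copy raises it. Rpl14, one of the 10, had 127 mismatches to its closest copy, while 49.3% of its 50-base windows matched a pseudogene exactly.

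The 6 without a full-length copy, among them Rpl8, Rps3, Rps9, Rpl4 and Rpl22, lay at 66.7 RPKM or more, with a median of 418. Rpl22, a large subunit protein needed for alpha-beta T cell development in mice, was the lowest of these, at 71.7 and 50.3 RPKM in wild type, 72.2 and 62.2 in dF1 and 77.2 in dF4. Every mean in this class lay above every mean of the members with a copy within 2%. Genes of this class still share parts with pseudogenes. Of their 50-base windows, 63.5% in Rpl4 and 61.7% in Rps9 matched a pseudogene with at most 2 mismatches. The share was 15.9% in Rps3, 12.3% in Rpl22 and 8.48% in Rpl8. These are shares of the whole transcript, of which 729 of 1908 bases are coding in Rps3 and 384 of 2051 in Rpl22. The classes were drawn after the values had been seen, so they are a description without a test.

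**Figure D2:**
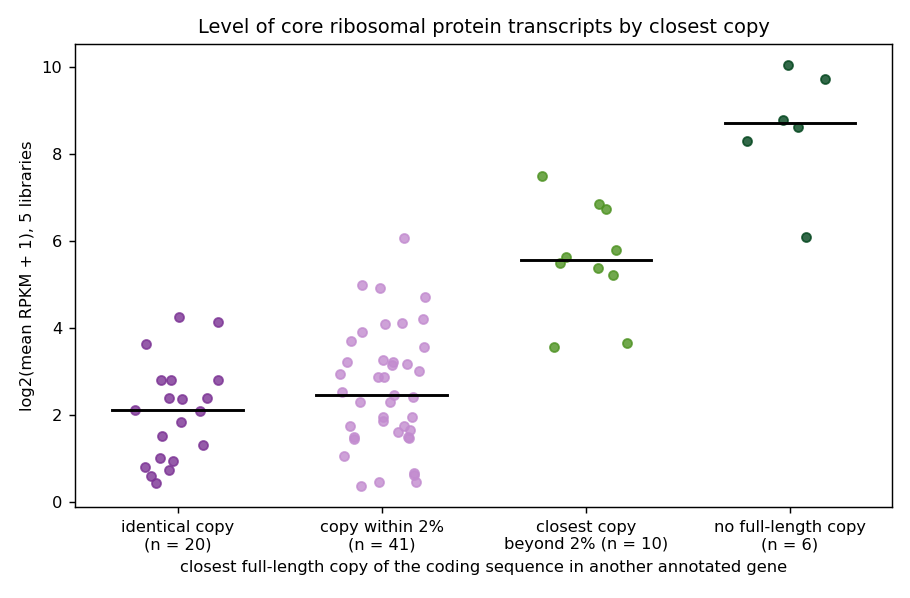
Mean level over 5 libraries, on log2(mean RPKM + 1), of the 77 core members by their closest full-length coding copy; each point is a gene, black lines are class medians and sideways scatter has no meaning. The 6 genes without a full-length copy lie above all 61 genes with an identical copy or one within 2%.

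Over the 71 core genes with a full-length copy, Spearman's rho between mean RPKM and the ungapped percent mismatch of the closest copy was 0.574. Over the 77 core genes it was -0.446 with the share of whole-transcript 50-base windows found exactly elsewhere and -0.356 with the number of pseudogenes. With transcript length it was 0.138. These genes share libraries and read handling, and the values are descriptions across genes. Whether read handling set the levels was not tested. A value near 0 is therefore given here only as what the table lists.

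Some pseudogenes have rows of their own. Rplp2-ps1, a pseudogene of a stalk protein, was listed at 70.7 and 77.6 RPKM in wild type, 74.1 and 103.5 in dF1 and 77.2 in dF4. Rplp2 itself was at 11.1 and 4.4 RPKM in wild type, 9.5 and 9.1 in dF1 and 7.4 in dF4. The pseudogene row lay above the gene in every library. The search above found 0 full-length pseudogene copies of the Rplp2 coding sequence, and whether these rows share reads was not tested. Rpl34-ps1 and Rps19-ps3 were also listed, with means of 0.18 and 0.72 RPKM, under the means of Rpl34 and Rps19.

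The members held 1.47% and 1.13% of the summed RPKM in wild type, 1.47% and 1.46% in dF1 and 1.38% in dF4. The 6 highest members alone made up between 71.5% and 80.8% of the members' sum. The other 80 members summed to 1284.4 and 621.1 RPKM in wild type, 1220.4 and 1118.7 in dF1 and 1009.4 in dF4. The wt libraries therefore stood further apart from each other than either dF1 library stood from wt replicate 1. For comparison, the 76 mitochondrial ribosomal proteins, which serve the separate ribosome of mitochondria, held 0.427% and 0.392% in wild type, 0.423% and 0.449% in dF1 and 0.439% in dF4.

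**Figure D3:**
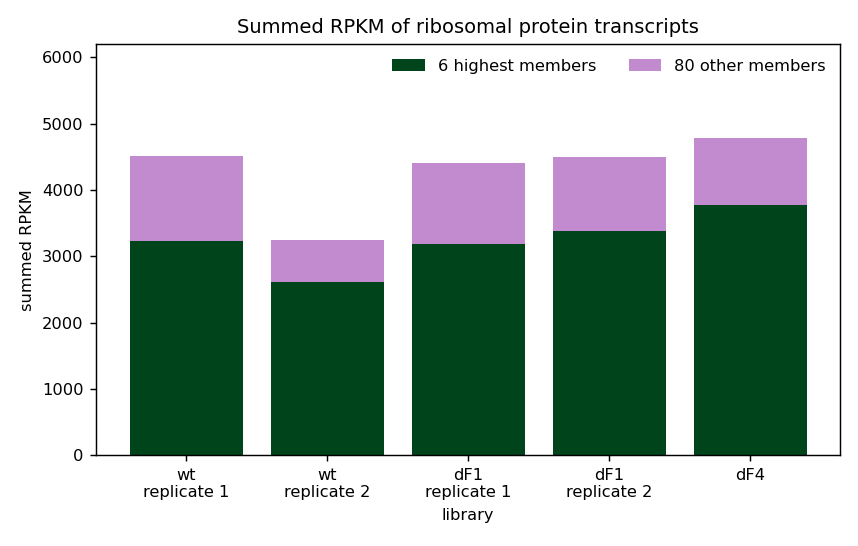
Summed RPKM of the 6 highest members (dark) and the 80 other members (light) in each library. The light part is 621.1 RPKM in wt replicate 2 and between 1009.4 and 1284.4 RPKM in the other libraries.

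The libraries of wt replicate 1 and 2 were not alike in these genes. Of the 44 members averaging 5 RPKM or more, all 44 were lower in replicate 2 than in replicate 1. The difference was at least 1 on the log2(RPKM + 1) scale for 22 of the 44, against 1.62% of the 8759 transcripts with that mean. Wt replicate 2 was the lowest of the 4 wt and dF1 libraries for 37 of the 44, against 41.9% of those transcripts. Between the dF1 libraries, 3 of the 44 were lower by at least 1 in replicate 2, against 0.263%.

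Rpl34 had the largest gap, at 36.3 RPKM in wt replicate 1, 5.2 in wt replicate 2, 41 and 13 in dF1 and 29.4 in dF4. Rpl32 was at 71.9 and 12.8 RPKM in wild type, 69.5 and 53.5 in dF1 and 35.8 in dF4. Rplp0, the base of the stalk that recruits elongation factors, was at 49.5 and 10.6 RPKM in wild type, 49.7 and 33.2 in dF1 and 11.0 in dF4. In each of them wt replicate 1 lay close to dF1 replicate 1, and wt replicate 2 was the lowest of all 5 libraries. The same gap of at least 1 was found in others, among them Rplp1, Rplp2, Rps14, Rpl14, Rps26, Rpl23, Rpl30, Rpl26, Rps24, Rpl39, Rpl41, Rps4x, Rpl18, Rpl7, Rps3a, Rps18 and Rps2, and in the lower members Rpl3, Rpl6, Rpl13, Rpl22l1, Rpl36al and Rpl37.

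Some of these also differed between the dF1 libraries. Rpl26 was at 25.5 and 5.9 RPKM in wild type, 27.2 and 8.4 in dF1 and 3.1 in dF4. Rpl37 was at 8.1 and 1.1 RPKM in wild type, 8.1 and 2.2 in dF1 and 0 in dF4. In Rpl26, Rpl34 and Rpl37 the replicate numbered 2 was the lower one in both genotypes, whereas Rplp1 and Rps4y2 were higher in dF1 replicate 2.

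The size of the gap differed with the copy class. For core members with a mean of at least 5 RPKM, the median of wt replicate 2 minus replicate 1 on the log2 scale was taken by class. It was -0.40 with an identical copy, -1.61 with a copy within 2%, -1.19 with a copy further away and -0.40 without a full-length copy. Rpl31, which has an identical copy, was at 21.5 and 20.5 RPKM in wild type, while Rps9 and Rpl13a also kept a ratio of replicate 2 to replicate 1 over 0.9.

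Outside the members, transcripts with more than 25% of their windows in pseudogenes (83 transcripts) had a median of -0.29, those with up to 25% (1386) had -0.15 and those with none (7076) had -0.08. Other measures moved with wt replicate 2 as well. NK cell markers (10 genes, none at 0) summed to 1911.2 RPKM in wt replicate 1 and 859.9 in replicate 2, and neutrophil markers to 408 and 1089.7 RPKM. The part of cell makeup or library quality in the gap was not tested.

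**Figure D4:**
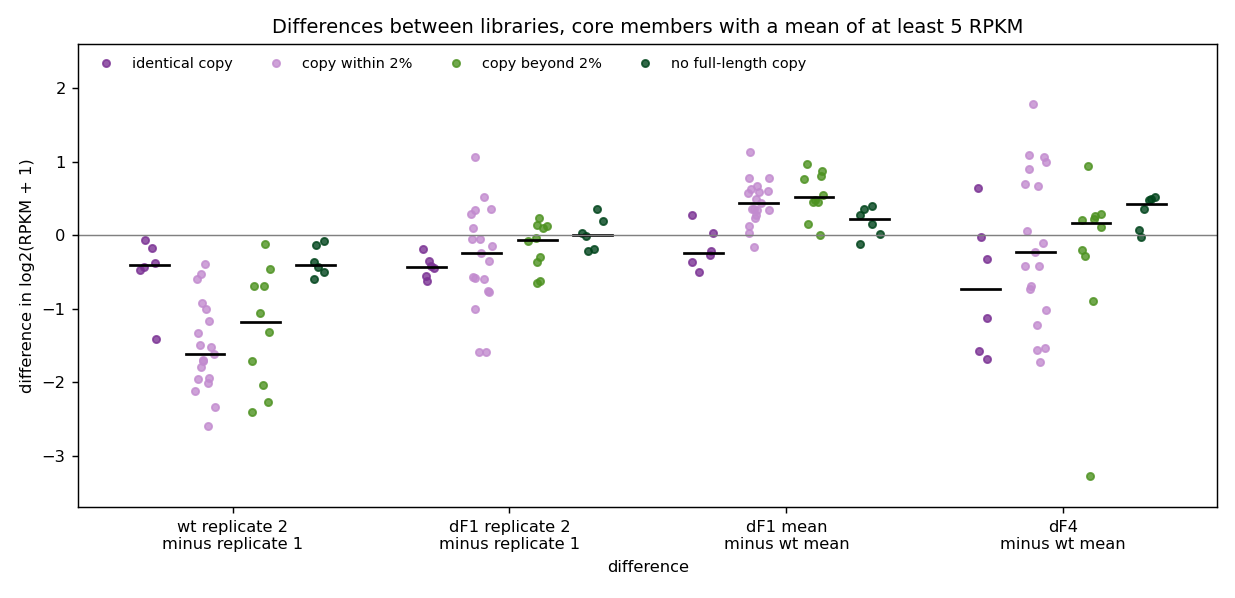
Differences in log2(RPKM + 1) for the 41 core members with a mean of at least 5 RPKM, by closest-copy class (colours); points are genes and black lines are class medians. In the leftmost block all points lie under 0, with class medians between -0.40 and -1.61. The values of dF1 minus wt lie mostly above 0 where that gap is large, and both differences use wt replicate 2.

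The comparison of dF1 with wt asked whether loss of zinc finger 1 changed these mRNAs. No member passed: limma on log2(RPKM + 1) called 0 of 74 members with a mean of at least 1 RPKM at a Benjamini-Hochberg adjusted p under 0.05, and 0 of all 12215 transcripts tested (0.0%). At an unadjusted p under 0.05 it called 1 member, Rpl35a, against 7.16% of all transcripts. The difference was above 0 for 55 of the 74 members, against 51.4% of all transcripts, with a median of 0.20 against 0.01.

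That direction rested on wt replicate 2. Without this library 17 of the 74 were above 0 and the median was -0.20. Without wt replicate 1 it was 58 of 74, with a median of 0.48. Both dF1 libraries lay above both wt libraries for 6 of the 74 members, against 16.8% of all transcripts, and below both for 7, against 17.9%. The members thus separated by genotype no more often than transcripts at large.

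Rpl35a, a large subunit protein whose loss underlies some Diamond-Blackfan anaemia, was at 4.5 and 2.3 RPKM in wild type and 6.6 and 6.3 in dF1. The groups did not overlap, and the log2 difference was 0.81 (SE 0.27, limma adjusted p = 0.660). In dF4 it was listed at 0, where the limit of 3 reads was 9.84 RPKM. Its closest copy differed at 1 of 330 coding bases.

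Among members higher in both dF1 libraries, the next by p were Rps21, Rps20, Rpsa and Rps26. Rpl21 and Rpl5, lower in both dF1 libraries, had a smaller unadjusted limma p than any of these. Rps21, of the small subunit, was at 39.5 and 24.1 RPKM in wild type and 41.9 and 49.6 in dF1. Rps20, in the small subunit head, was at 41.3 and 25.2 RPKM in wild type and 42.7 and 46.6 in dF1. Rps26, at the mRNA exit channel, was at 33.9 and 11.4 RPKM in wild type and 35.4 and 34.2 in dF1. In these genes the dF1 values were close to wt replicate 1 and the lower wt value was that of replicate 2. Rpsa, the laminin receptor protein whose mutation causes absence of the spleen, was at 1.8 and 1.0 RPKM in wild type and 2.3 and 1.9 in dF1. Their limma adjusted p-values lay between 0.743 and 0.799.

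Among members lower in both dF1 libraries, Rpl5, which joins 5S RNA with Rpl11, was at 7.2 and 6.3 RPKM in wild type, 5.4 and 4.6 in dF1 and 6.6 in dF4. Its log2 difference was -0.37 (SE 0.16, limma adjusted p = 0.721). Rpl10, added late in large subunit maturation, was at 10 and 6.9 RPKM in wild type and 6.6 and 4.7 in dF1. Rpl21, a large subunit protein, was at 1.7 and 1.3 RPKM in wild type and 0.7 and 1.0 in dF1. Rps13, of the small subunit, had means under 2 RPKM in both groups. None of these differences passed the test, and wt replicate 2 was nearer to dF1 than wt replicate 1 in Rpl5, Rpl10 and Rpl21.

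By role, the medians of dF1 minus wt over members with a mean of at least 1 RPKM were 0.17 for 36 large subunit, 0.33 for 28 small subunit and 0.78 for the 3 stalk proteins. Rplp1, a stalk protein, was at 50.2 and 19.3 RPKM in wild type, 47.6 and 101.0 in dF1 and 110.4 in dF4. The same classes differed by -0.56, -0.64 and -1.33 between wt replicate 2 and replicate 1. The class with the larger genotype difference was thus also the class with the larger gap within wt. Both differences use wt replicate 2, so a low value there raises the first and widens the second.

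The dF4 library was set beside wt without a test, since it is 1 library. A transcript was counted when dF4 lay outside both wt libraries and at least 1 from their mean on the log2(RPKM + 1) scale, the gap between the wt libraries was at most 0.5 and the mean was at least 5 RPKM. No member was higher and 3 of 44 were lower, against 6.96% higher and 9.34% lower of 8759 transcripts. For 30 of the 44 the wt libraries were more than 0.5 apart, against 10.2% (892 of 8759), so the rule could not count them. That left 14 members to count, and the shares above do not allow for this difference. The count depended on the wt libraries and on the limit of 0.5. With 1 wt library left out the limit on the gap no longer applied, and all 44 could be counted. This changed rule gave 9 higher and 4 lower without wt replicate 1, against 992 and 935 of the 8759 transcripts. Without wt replicate 2 it gave 1 higher and 15 lower, against 769 and 1010. The median of dF4 minus wt over 74 members was 0.005, against 0.02 over all transcripts. Over these 74 it was 0.38 without wt replicate 1 and -0.37 without wt replicate 2. With a filter at a mean of 20 RPKM the median was 0.26 over 19 members, against -0.006 over all transcripts. Over the 16 core members without a full-length copy within 2% it was 0.21.

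The 3 lower members were Rpl31, Rpl10 and Rps19bp1. Rpl31, near the peptide exit, was at 21.5 and 20.5 RPKM in wild type, 20.2 and 14.6 in dF1 and 6.4 in dF4, a value that rests on 4 reads (exact 95% Poisson interval 1.75 to 16.4 RPKM). Rps19bp1, which binds Rps19 and is not a ribosomal protein, was at 13 and 12.1 RPKM in wild type, 12.4 and 13.2 in dF1 and 4.0 in dF4, with an interval from 0.49 to 14.5. Rpl10 was at 1.9 RPKM in dF4, with an interval from 0.05 to 11.6. In Rps19bp1 and Rpl10 the interval reached the wt mean, so counting error alone spans the difference.

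The most deeply read members gave narrower intervals, and these include the genes without a full-length copy. In dF4, Rpl8 had an interval from 1014 to 1197 RPKM and Rps3 from 479 to 564. For these genes and for Rplp1, with 75.0 to 157 RPKM, both wt libraries lay under the interval. Rps3 was 1.42 times the wt mean and Rpl8 slightly less, both under the size rule. Rps9 and Rpl4 were at 0.99 and 1.03 times the wt mean, with the wt values inside the interval for Rps9 and on either side of it for Rpl4. The genes without a full-length copy thus did not move by a single factor.

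**Figure D5:**
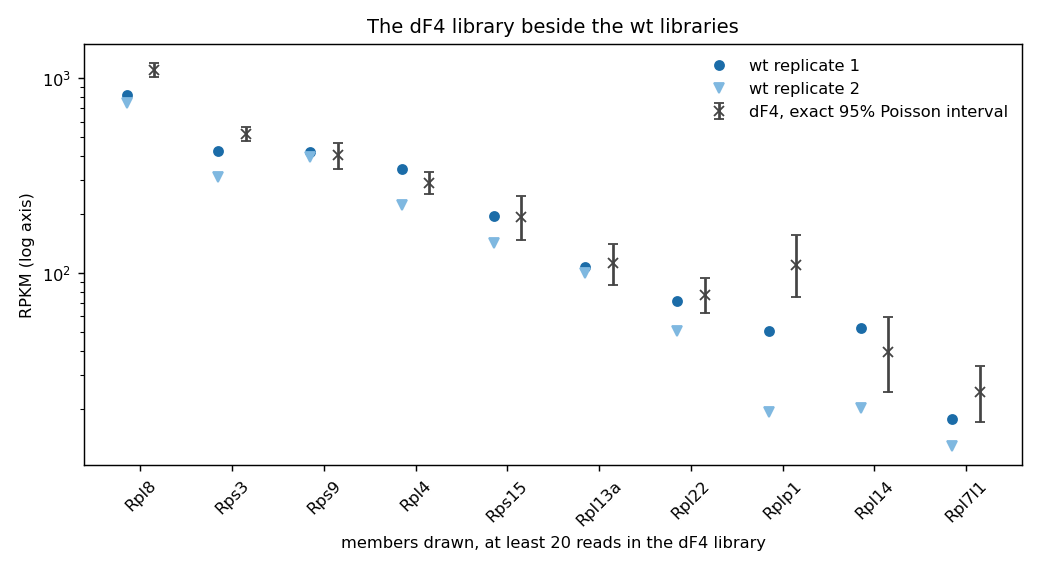
RPKM on a log axis of 10 of the 12 members with at least 20 reads in dF4 (crosses with exact 95% Poisson intervals, counting error only) beside the wt libraries. The interval lies above both wt values in Rpl8, Rps3 and Rplp1.

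Other members with high values in dF4 were Rps24, Rps19, Rpl34, Rps20, Rps25, Rpl23 and Rps26. Rps19, the protein most often mutated in Diamond-Blackfan anaemia, was at 16.2 and 10.4 RPKM in wild type, 11.7 and 15.2 in dF1 and 28.3 in dF4 (interval 14.5 to 52.0). Rps24, mutated in the same disease, was at 14.7 and 3.8 RPKM in wild type, 12.7 and 11.4 in dF1 and 17.5 in dF4 (interval 7.99 to 33.2). Rps20 was at 62.9 RPKM in dF4 (interval 37.9 to 98.3). Rpl34 and Rps26 in dF4 lay between their wt values, and Rps25 and Rpl23 lay above both. The wt mean was inside the dF4 interval for Rps24, Rpl34, Rps25, Rpl23 and Rps26, and under it for Rps19 and Rps20. Rps25 rested on 5 reads and Rpl23 on 15. Low values that the rule could not count were found as well. On the log2 scale dF4 minus wt was -3.27 for Rpl39, -1.72 for Rpl26, -1.56 for Rpl18 and -1.53 for Rps3a. These rested on 0 to 1 reads, and each interval held the wt mean. Rplp0, at -1.01, had an interval from 5.05 to 20.9 RPKM, under the wt mean of 30.05 but around wt replicate 2 (10.6).

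Low members could not be read in dF4. Of the 86, 60 rested on at most 5 reads and 19 were listed at 0, of which 18 were above 0 in every other library. For 18 of the 19, the wt mean was within the limit that 3 reads allow, the exception being Rps15a, at 4.4 and 2.1 RPKM in wt against a limit of 0.98. The wt mean lay inside the dF4 interval for 74 of the 86. Among members with a mean of at least 1 RPKM, 25 were above both wt libraries (44.7% of all transcripts) and 24 below both (42.3%).

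Beside these values, neutrophil markers summed to 33825.4 RPKM in dF4 and to at most 1089.7 in the other libraries, and erythroid markers to 1610.3 against at most 252.2. The part of cell makeup in the dF4 values was not tested.

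The 9 paralogs and related genes were mostly low. Rps27l, a p53 target, was at 34.8 and 21.0 RPKM in wild type, 21.3 and 32.8 in dF1 and 27.6 in dF4, above its core partner Rps27, which was at 1.3 and 1.6 in wild type, 2.6 and 1.6 in dF1 and 2.1 in dF4. Rpl7l1 was at 17.8 and 12.9 RPKM in wild type, 15.8 and 18.6 in dF1 and 24.4 in dF4, and Rpl7 at 15.6 and 2.3, 13.9 and 7.8, and 3.6. Both paralogs were thus above their partners in each library, where Rps27 has an identical copy and Rpl7 one that differs at 10 of 810 bases.

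Rpl22l1 was below Rpl22 in each library, at 8.3 and 2.5 RPKM in wild type, 6.2 and 3.2 in dF1 and 1.5 in dF4. Rpl36al was at 7.2 and 2.9 RPKM in wild type, 6.3 and 3.8 in dF1 and 0 in dF4, above Rpl36a, whose mean was 0.34. Rps4y2 was at 3.3 and 3.6 RPKM in wild type, 3.0 and 7.8 in dF1 and 0 in dF4, with a mean under that of Rps4x (10.8).

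The paralogs known from other tissues were near the bottom. Rpl10l, made in male germ cells, was listed at 0 in every library. Rpl3l, of heart and skeletal muscle, was at 1.6 and 2.2 RPKM in wild type, 0.3 in both dF1 libraries and 0 in dF4, and its mean was too low for the test. Rpl39l, also of male germ cells, was at 0.4 and 0.1 RPKM in wild type, 0.1 and 0.3 in dF1 and 8.3 in dF4, where it rests on 4 reads (interval 2.26 to 21.2 RPKM). Rpl39, its partner, was at 20.2 and 3.4 RPKM in wild type, 20.9 and 13.2 in dF1 and 0 in dF4, and the limit of 3 reads was 12.7 RPKM. These values stood in opposite order in dF4 and in the other libraries.

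For 9 members the table had several transcripts, and for 6 of these their means differed by over 10 times. Rps24 was read through one transcript at a mean of 12.0 RPKM and a second at 0.06. Rpl35a had means of 3.94, 0.08 and 0.02 RPKM over 3 transcripts, Rpl19 had 1.82 and 0.08, and Rps27 had 1.84 for a non-coding RefSeq entry and 0.02 for the coding one. Closer means were found in Rpl34, with 24.98 and 13.2 RPKM, and Rps27a, with 2.32 and 1.44, while Rpl30 had 16.04 and 3.54. The gap between the wt libraries was reversed in the second Rpl30 transcript. It was at 2.6 RPKM in replicate 1 and 6.1 in replicate 2, against 25.9 and 7.3 in the first. The second Rpl34 transcript, at 17.7 and 2.4 RPKM, had a gap in the same direction as the first. The choice of transcript therefore decides the level given for many of these members.

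The annotated starts of these genes were read for the pyrimidine tract. Of the 77 core members, 56 had an entry among RefSeq promoters (GRCm38.p6). A tract, taken as a C at the annotated start followed by at least 4 bases that are each C or T on the transcript strand, was present in 13 of the 56 (23.2%), against 3.01% of 27025 genes. It was found in 0 of 69 mitochondrial ribosomal proteins and 0 of 8 paralogs or related genes. A match is a description of the annotated start, which may be a few bases from the start in use.

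The starts below belong to Rpl14 and Rps21, which had the highest means of the genes with a tract. Those of Rpl35 and Rpl38, which were near 0, follow. Each is 30 bases, the start being the 11th, with the tract in capitals.

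Rpl14: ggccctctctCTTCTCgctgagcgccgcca
Rps21: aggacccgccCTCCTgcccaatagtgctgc
Rpl35: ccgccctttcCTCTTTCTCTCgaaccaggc
Rpl38: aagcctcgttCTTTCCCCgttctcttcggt

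These lie at chr9:120571507-120571536 (plus strand), chr2:180257369-180257398 (plus), chr2:39005112-39005141 (minus) and chr11:114668570-114668599 (plus) of GRCm38.p6. The means were 40.3 RPKM for Rpl14, 36.4 for Rps21, 0.52 for Rpl35 and 0.74 for Rpl38. Rplp2 was the next highest gene with a tract, with a mean of 8.3 RPKM. Rps3, Rps9, Rpl4, Rps15 and Rpl13a, which averaged 100 RPKM or more, had no tract at their annotated starts.

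Genes around the ribosome were compared as lists. In dF1 limma called 0 members of every list. At an unadjusted p under 0.05 it called 2 of 8 elongation factors, 2 of 14 control genes, 1 of 5 other mRNAs with a 5′ TOP and 1 of 73 mitochondrial ribosomal proteins, against 7.16% of all transcripts. It called 0 of 28 initiation factors, 0 of 39 biogenesis factors and 0 of the ribosomal proteins under other symbols. Gnb2l1, which encodes the scaffold protein Rack1, was at 878.2 and 682.4 RPKM in wild type, 903.8 and 968.6 in dF1 and 1035.2 in dF4, in the range of Rpl8. Fau, made as a fusion with a relative of ubiquitin, had at most 3.2 RPKM. Among the 8 elongation factors, Eef1a1 was at 196.2 and 61.2 RPKM in wild type, 179.3 and 112.7 in dF1 and 78.4 in dF4, and Eef2 at 476.9 and 381.3, 479.4 and 580.0, and 550.6. Both were lower in wt replicate 2 than in replicate 1.

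Ribosome biogenesis factors were steadier than the members. Over 39 of them, the median of wt replicate 2 minus replicate 1 was -0.09, and that of dF1 minus wt was 0.12. In dF4 the size rule counted 1 as higher and 2 as lower of 37, against 6.96% and 9.34% of all transcripts. Rrs1, an assembly factor of the large subunit, was higher, at 3.8 and 3.9 RPKM in wild type, 4.3 and 5.6 in dF1 and 9.8 in dF4. Nop10, of the pseudouridylation particles, and Rrn3, an initiation factor of RNA polymerase I, were lower, with Nop10 at 37.6 and 35.4 RPKM in wild type, 42.1 and 34.7 in dF1 and 14.4 in dF4.

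Of 14 genes of translation and ribosome control with a mean of at least 5 RPKM, 1 was counted as higher in dF4 and 0 as lower, against the same shares. This was Eif4ebp1, an mTOR-regulated inhibitor of the cap-binding protein Eif4e, at 5.3 and 5.8 RPKM in wild type, 11.7 and 15.8 in dF1 and 35.6 in dF4. Its dF1 libraries did not overlap wt, and the log2 difference of 1.16 did not pass (limma adjusted p = 0.29). Myc, an activator of ribosomal protein genes, was at 16.6 and 8.5 RPKM in wild type, 21.7 and 25.5 in dF1 and 30.7 in dF4, and its limma adjusted p for dF1 was 0.66. Of the 29 initiation factors 24 had a mean of at least 5 RPKM, and the size rule counted 0 of these in dF4, against 6.96% higher and 9.34% lower of all transcripts. Pabpc1, the poly(A)-binding protein, was at 112.3 and 93.5 RPKM in wild type, 106.7 and 133.1 in dF1 and 174.6 in dF4.

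Of 6 other mRNAs with a 5′ TOP, Tpt1 and Naca were below 2 RPKM in every library. Npm1, a nucleolar chaperone, was at 22.6 and 10.2 RPKM in wild type, 19.2 and 9.7 in dF1 and 18.5 in dF4. Mitochondrial ribosomal proteins had a median wt replicate gap of -0.24 and a dF1 median of 0.10. In dF4 7 were higher and 3 lower of 66, against 6.96% and 9.34% of all transcripts, the lower ones including Mrps35 and Mrpl54, the latter at 19.1 and 22.3 RPKM in wild type, 18.6 and 16.9 in dF1 and 3.5 in dF4. These ribosomal proteins of the mitochondrion thus showed a smaller gap between the wt libraries than the cytosolic ones, whose median was -0.65, without a test of that difference.

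The lists also had members with larger differences in dF4 that the size rule did not count. On the log2 scale, dF4 minus wt was -1 for Eef1g, 0.72 for Eef1e1 and 0.60 for Eif5a among elongation factors, and -0.85 for Eif1ax and 0.69 for Eif4a1 among initiation factors. It was 0.89 for Trp53, which encodes p53, and 0.68 for Nap1l1. The Eef1g value in dF4 rests on an estimated 0.7 reads. Btf3 was at 9.4 and 2.4 RPKM in wild type, 8.0 and 3.9 in dF1 and 0 in dF4. The dF4 values lay below wt in some genes of each of these classes and above it in others.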

How the data were processed

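The authors deposited one table of RPKM per RefSeq transcript, written to 1 decimal, per the file headers (26531 transcripts; 1 line that names no gene was left out). TopHat, bedtools and mm9 are named, without versions, in the submitters' processing notes, and the labels' protocols name Illumina TruSeq and mRNA enriched from total RNA. For strand use, settings and reads shared among copies, the method is not given in the sources used here.

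Libraries of dF1 and wt were compared with limma 3.58.1 in R 4.3.3 on log2(RPKM + 1), a scale that understates changes of low transcripts, two-sided, with a variance trend, over transcripts averaging 1 RPKM or more. For dF4, described by size without a test, exact 95% Poisson intervals on reads estimated from the step of low RPKM values (82.0% of 1845 whole within 0.1 read) cover counting error only. Depth of the other libraries is unknown. Fit and adjustment ran over the whole table, and the script was tested on simulated data.

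Sequence copies came from GENCODE M21 and starts from RefSeq promoters. Named members were the 5 highest, the 5 lowest not near 0, up to 15 near 0, the paralogs, the 5 with the smallest p in each direction without overlap, those the dF4 rule counted or the highest in dF4, those whose wt or dF1 libraries differed by over 1, and those with discordant transcripts. Some members and a related gene are not reported here by name, and those not named are in the counts. Pathway genes with the largest dF4 difference were to be named, and Eef1a1, Eef2 and Npm1 were added after their values were seen. The members, lists and rules were chosen with earlier results of these data known, and the copy classes and tract search were added after the values were seen.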

Additional observations from a re-analysis of the deposited data

How the results depend on the processing

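The count of 0 members called in dF1 held under other pseudocounts (0.1 and 5), median centring, quantile normalization, scaling to TPM, no filter, a filter at 5 RPKM, robust variances and each left-out library. With no filter a second Rpl3l transcript, at 0.1 RPKM in both wt libraries and 0 in both dF1, passed; it is not the one counted. Over all transcripts 245 were called with no filter, 25 with the filter at 5 RPKM and 33 with robust variances, against 0. Without one library the dF1 median ran from -0.20 to 0.48 and the members above 0 from 17 to 58, lowest without wt replicate 2. With the replicate number as a block 0 members were called (3 at an unadjusted p under 0.05), with a median of 0.20. Same-numbered libraries deviated together with r = 0.305 over all transcripts and 0.511 over the members; the labels do not say what the number stands for. For dF4 the count of 3 (0 higher, 3 lower) was 1 at a pseudocount of 5, 0 with a filter at 20 RPKM and 6 for a 1.5-fold difference (3 higher, 3 lower). Over all transcripts 486 were higher and 533 lower at that pseudocount, and 1371 and 1631 for the 1.5-fold difference. With 1 wt library left out the limit on the wt gap no longer applied, which opened the count to all 44 members. The count was then 13 to 16. It was 9 higher and 4 lower without wt replicate 1, against 992 and 935 of all transcripts. Without wt replicate 2 it was 1 higher and 15 lower, against 769 and 1010. The dF4 median ran from -0.37 to 0.38 with 1 wt library left out, and the cause was not tested. With the filter at 20 RPKM it was 0.26 over 19 members. Scaling to TPM (equal library sums) moved the dF4 median of all transcripts to -0.19 and of the members to -0.22, and the transcripts counted as higher and lower from 610 and 818 to 428 and 1223 (170 and 361 with the filter at 20 RPKM). Multiplied by transcript length, member shares were 0.505%, 0.386%, 0.506%, 0.516% and 0.539% for wt, dF1 and dF4 in that order, and without the 50 highest other transcripts 1.67%, 1.28%, 1.67%, 1.66% and 1.71%. Members near 0 numbered 5 at a limit of 1 RPKM and 59 at 20. Few reads limit the dF4 values, and rounding to 1 decimal limits those of members near 0.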
